A study of Mus musculus with 4 samples.

Results

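The regions described are the autosomal sites of open chromatin that carried a peak in both replicate 2 libraries of a study of mouse fat progenitors and in neither replicate 1 library. There were 531 of them, called the members, among 80820 merged autosomal regions and 83319 merged regions in all. The members were chosen by peak presence, that is, by measured values: all peaks sharing 1 bp or more were joined into regions, and a region was a member when a peak of SAT 2 and a peak of VAT 2 lay in it and no peak of SAT 1 or VAT 1 did. Their number and their scores are therefore a description, and no test was made on them. A further 12 regions on chromosomes X and Y met the same peak rule and are not members.

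The cells were adipose progenitors, the mesenchymal precursors that can form fat cells, taken fresh and without further treatment from C57BL/6 mice aged 16 weeks. SAT stands for subcutaneous and VAT for visceral fat, with 2 ATAC-seq libraries for each, named SAT 1, SAT 2, VAT 1 and VAT 2 by the replicate number of their titles. The labels do not say which visceral depot was used, how the cells were selected, whether animals were pooled, or whether replicates came from separate animals. The sexes of the animals are not stated in the labels either.

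In ATAC-seq a transposase inserts adapters where DNA is accessible, so that a peak marks a promoter, enhancer or other site free of tightly packed nucleosomes in at least part of the cells. Promoters tend to be open in many cell types. Distal enhancers differ more between cell types and are often found as several sites spread over the domain of 1 gene. In a bulk library, fewer cells with an open site and weaker opening in each cell cannot be told apart.

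The lists of SAT 1, VAT 1 and VAT 2 held 56823, 56907 and 62279 peaks, and SAT 2 stood apart with 22845. Read depth is unknown, and a site without a peak may still have been open. No gene positions on mm9, the build of the lists, were used, so that markers of progenitors or of other cell types could not be checked and SAT and VAT are names from the labels throughout. All positions are on mm9, counted from 1.

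The head of the ranking of members was a site in a run on chromosome 2, and strong here means strong among members. The strongest member, ranked by the weaker of its 2 peaks, lay on chromosome 2 at 104966472 to 104967013. Its score was 176 in SAT 2 and 255 in VAT 2, and it had no peak in SAT 1 or VAT 1. These scores stood at percentiles 84.7 of the SAT 2 list and 85.0 of the VAT 2 list, a percentile being the share of peaks in the same list with a lower score, with ties counted at their middle. It was the only member of the 531 with both peaks at or above percentile 80. All peaks stood there in 3855 of the 18734 regions open in all 4 libraries. Both did in 88 of the 7643 regions shared by the replicate 1 libraries alone. The nearest peak of either replicate 1 library lay 35.1 kb away.

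From general knowledge of mm9, and not from an annotation read for these data, this position is that of the start of Wt1. Wt1 encodes a zinc-finger transcription factor of the mesothelium, the cell sheet that lines the body cavities and covers visceral organs and fat, and is known from progenitors of visceral but not of subcutaneous white fat. In RefSeq's gene order on assembly GRCm38.p6, Wt1 lies between the protein-coding genes Eif3m and Them7. The library labelled SAT 2 thus held a peak at this position and the library labelled VAT 1 held none. What this means for the depot labels was not tested.

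Sequence of build mm9 was not used, so the bases of the members themselves are not shown. To show what kind of sequence begins at this locus, the RefSeq promoter window of Wt1os, the antisense transcript that starts beside Wt1, is given from assembly GRCm38.p6 (chr2:105126461-105126760, minus strand), from 250 bases before to 50 after its start. Its place relative to the mm9 peak was not computed, because positions were not converted between builds. Capitals mark GGGCGG, the core of the GC box, searched on both strands.
Wt1os: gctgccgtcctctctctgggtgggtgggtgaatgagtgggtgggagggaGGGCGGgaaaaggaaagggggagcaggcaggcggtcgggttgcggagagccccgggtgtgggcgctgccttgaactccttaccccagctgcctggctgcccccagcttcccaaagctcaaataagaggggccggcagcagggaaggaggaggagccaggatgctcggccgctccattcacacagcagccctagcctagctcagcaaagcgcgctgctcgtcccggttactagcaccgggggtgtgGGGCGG
The window held GGGCGG 2 times on the strand shown and 0 times on the other, and 35.7% of the 32851 RefSeq promoter windows of the same length held it on either strand. TATAAA, the TATA box core, occurred 0 times on both strands, against 13.6% of windows with at least 1 match. G and C made up 66.7% of its bases, against a median of 52.7% over those windows. It held 16 CpG pairs against a median of 7, and 67.0% of the windows held fewer than it did. These matches describe the letters of the window and say nothing of bound factors.

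The strongest member was 1 of 4 in a run of 66.2 kb. The first of the 4 lay at 104953025 to 104953456, with a score of 94 in SAT 2 and 182 in VAT 2. The third lay at 104986858 to 104987364, with 128 and 211, and had rank 10 among all members. The fourth lay at 105018778 to 105019266, with 83 and 147. All 4 were wide for members, between 432 and 542 bp, against a median of 241 bp. Their percentiles ran from 45.1 to 84.7 within the SAT 2 list and from 67.2 to 85.0 within the VAT 2 list. These lists differ in length, so the ranks do not compare strength between the libraries.

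The surroundings of this run held further VAT 2 peaks besides those of the members, and few of replicate 1. From 50 kb before the run to 50 kb after it there were 19 merged regions, of which 18 had a VAT 2 peak, 7 a SAT 2 peak, 2 a SAT 1 peak and 2 a VAT 1 peak. Besides the 4 members, 12 regions had a peak in VAT 2 alone and 1 in SAT 2 alone. The 12 peaks of VAT 2 alone had scores from 57 to 148, with a median percentile of 55.9. Both regions with replicate 1 peaks were open in all 4 libraries. The first of them lay at 104931245 to 104931514. It scored 72 in SAT 1 (percentile 33.0), 71 in VAT 1 (29.0), 50 in SAT 2 (14.6) and 214 in VAT 2 (80.1). The second lay at 105008254 to 105008727, between the third and the fourth member. It scored 72 in SAT 1 (percentile 33.0), 109 in VAT 1 (50.6), 112 in SAT 2 (63.9) and 336 in VAT 2 (91.6). Many VAT 2 peaks were not particular to this run. With the same flanks, the runs of 3 members described below had VAT 2 peaks in 20 of 20, 9 of 9 and 17 of 17 regions. Of these regions 11, 4 and 6 had VAT 2 alone, 6, 1 and 7 a SAT 1 peak, and 2, 1 and 8 a VAT 1 peak. Over all autosomes 59353 of 80820 regions had a VAT 2 peak, and 19.7% had VAT 2 alone. Members have one by the rule.

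**Figure D1:**
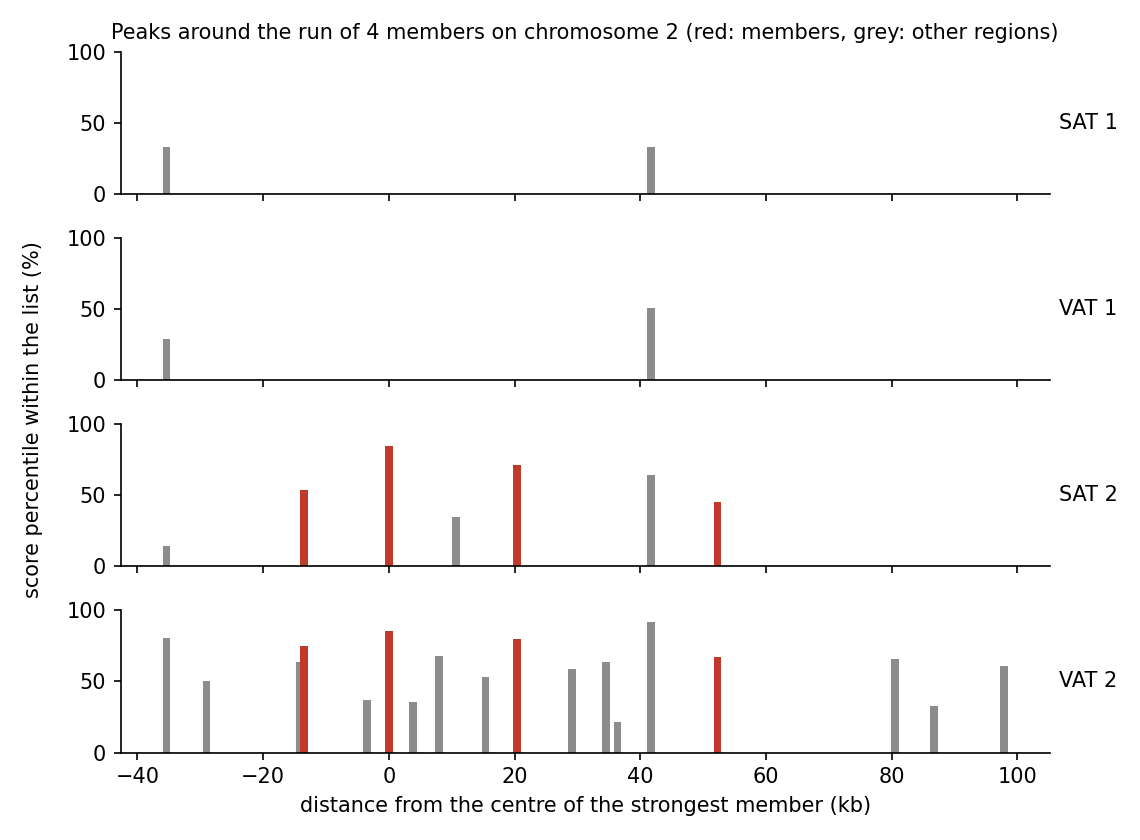
Each bar is a peak, placed by its distance in kb from the centre of the strongest member and as high as its score percentile (%) within its own list, with 1 panel per library. The 4 members (red) occur in SAT 2 and VAT 2 alone, and SAT 1 and VAT 1 each show 2 peaks, at regions open in all 4 libraries.

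The other leading members were spread over the genome. The second in rank was on chromosome 13 (4782604 to 4782917), with a score of 150 in SAT 2 and 262 in VAT 2. The third was on chromosome 8 (113494126 to 113494447), with 153 and 196. The fourth was on chromosome 1 (158938200 to 158938780), with 141 and 246, and was the widest of the 20 strongest at 581 bp. Both libraries placed these 3 peaks in the upper part of their lists, between percentiles 75.8 and 85.8.

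A pair of leading members lay 192.7 kb apart on chromosome 2. The fifth in rank, at 74996559 to 74996972, had scores of 139 in SAT 2 and 182 in VAT 2. The sixth, at 74803542 to 74803838, had 139 and 174. By general knowledge of mm9 these positions fall in the gene-poor flank of the HoxD cluster on the side of Hoxd1. The Hox genes encode transcription factors that pattern the body axis and limbs, and both flanks of HoxD are known for distant enhancers. The sixth lay 883 bp from a replicate 1 peak and the fifth 17.5 kb from one.

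Members 7 to 11 of the ranking lay on chromosomes 8, 4, 6, 2 and 1. That on chromosome 8, at 90417464 to 90417864, had scores of 129 in SAT 2 and 181 in VAT 2. That on chromosome 4, at 113993230 to 113993514, had 128 and 321. The site on chromosome 6, at 33434628 to 33434924, had 128 and 222 and lay 149.6 kb from the nearest replicate 1 peak, the farthest of the 20 strongest. The site on chromosome 2 is the third of the run of 4 described above. That on chromosome 1, at 141106368 to 141106669, had 139 and 149.

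The remaining 9 of the 20 strongest had weaker peaks between percentiles 61.4 and 62.8. Chromosome 4 held one at 128933744 to 128934004, scoring 109 in SAT 2 and 133 in VAT 2. Chromosome 5 held 2, at 147478170 to 147478303 with 128 and 130, and at 122960797 to 122961118 with 107 and 192. Those on chromosome 3 numbered 4, at 100834636 to 100834832 with 118 and 130, at 109424596 to 109425053 with 107 and 274, at 18540347 to 18540554 with 107 and 196, and at 85002457 to 85002704 with 107 and 188. A site on chromosome 9 (115259926 to 115260057) had 118 and 130. The last, on chromosome 1 at 184390846 to 184391275, had 107 and 204 and lay 288 bp from a replicate 1 peak.

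Ranks 16 to 24 had the same weaker percentile of 61.4 and were ordered by their stronger peak, so that 4 members as strong by the weaker peak, on chromosomes 5, 2, 15 and 12, fall outside the 20. The 20 strongest in this order lay on 9 chromosomes, with 4 each on chromosomes 2 and 3 and 3 on chromosome 1. Their median width was 308 bp, against 239 bp in the other 511 members, and their median distance to a replicate 1 peak was 12.1 kb against 7.77 kb. No interval was computed for these medians, and the distances of the 20 ran from 0.288 to 149.6 kb. Whether the wider median follows from ranking by score was not tested. Apart from Wt1 and HoxD, named from general knowledge, genes are not given for the leading sites, since no gene positions on mm9 were used.

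Most members were modest peaks within each list. Percentiles in SAT 2 and VAT 2 are not on one scale, since the SAT 2 list is much shorter, and regions open in all 4 libraries also stood lower in SAT 2 (median 55.6) than in VAT 2 (median 83.6). In SAT 2 the percentiles ran from 0.0482 to 84.7 with a median of 23.6, and in VAT 2 from 0.373 to 96.7 with a median of 50.5. The VAT 2 percentile was the higher in 424 members and the SAT 2 percentile in 107. Both peaks were in the upper 50% of their list in 54 members and at or above percentile 70 in 10. By VAT 2 alone 34 members stood at or above percentile 80, but by SAT 2 alone 1 did. In each list the median of the members was below that of the regions open in all 4 libraries. For the 7643 regions shared by the replicate 1 libraries alone, the medians in those lists were 36.5 for SAT 1 and 37.9 for VAT 1.

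The order of strength differed between the libraries. The highest VAT 2 peak in any member was on chromosome 7 (122136126 to 122136464), with a VAT 2 score of 448 (percentile 96.7) and a SAT 2 score of 68 (percentile 32.4). The next by VAT 2 was on chromosome 12 (102204525 to 102204851), with 356 in VAT 2 and 97 in SAT 2. These 2 sites were named after their values were seen. Across the 531 members, Spearman's rho of the SAT 2 and VAT 2 scores was 0.321. It was 0.477 for SAT 1 and VAT 1 scores across the regions found only in those, and 0.715 for SAT 2 and VAT 2 scores across the regions open in all 4. These are correlations across regions of the same libraries, which are not replicates, and the members span a narrower range of scores than the common regions.

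**Figure D2:**
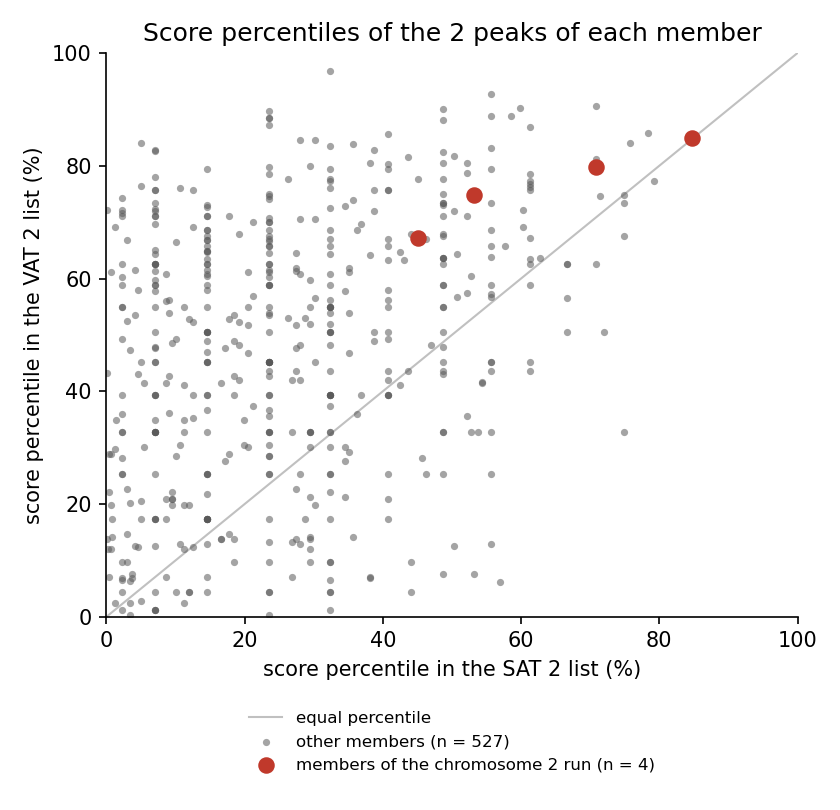
Each point is a member, placed by the score percentile (%) of its SAT 2 peak on the x axis and of its VAT 2 peak on the y axis, with the 4 members of the chromosome 2 run in red and equal percentiles on the grey line. Most points, 424 of 531, lie above the line, and the strongest member of the run is the farthest to the upper right.

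The 2 peaks of a member overlapped in part, and the VAT 2 peak was mostly the wider. Exactly 1 peak of each library lay in 529 members, and 2 members had more than 1 SAT 2 peak. Peak width had a median of 127 bp in SAT 2 (quartiles 106 and 168) and of 224 bp in VAT 2 (quartiles 151.5 and 308). VAT 2 was the wider in 440 members and SAT 2 in 90. In the whole lists the median widths were closer, at 208 bp in SAT 2 and 220 bp in VAT 2. The overlap took up a median of 55.2% of the wider peak (quartiles 39.9% and 71.2%, lowest 1.42%). The peak centres were a median of 32.5 bp apart. The narrowest SAT 2 peaks of members were close to their lower quartile of 106 bp. Whether a lower limit on peak width shaped the split in width or the overlap was not tested. Together the members covered 139.2 kb. Their median width of 241 bp (95% interval of the median 231 to 251) compares with 222 bp where the replicate 1 libraries alone had peaks, 206 bp where the visceral libraries alone did, and 528 bp for those open in all 4. The interval is from binomial order statistics over regions and covers no spread between animals.

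The members were set against the other partners that SAT 2 could share a region with. Of 805 autosomal regions with a SAT 2 peak and no replicate 1 peak, 531, or 66.0%, had a VAT 2 peak (95% Clopper-Pearson interval 62.6% to 69.2%), which are the members. Of 340 with a SAT 2 peak and no visceral peak, 66, or 19.4% (15.3% to 24.0%), had a SAT 1 peak. Of 342 with a SAT 2 peak and none in SAT 1 or VAT 2, 68, or 19.9% (15.8% to 24.5%), had a VAT 1 peak. The pools a partner could share differed in size: 16424 regions had a VAT 2 peak and no replicate 1 peak, 6338 a SAT 1 peak and no visceral peak, and 7041 a VAT 1 peak and none in SAT 1 or VAT 2. Of these pools 3.23%, 1.04% and 0.966% had a SAT 2 peak. The 66.0% became 36.5% with lists cut to equal length and 39.4% with 200 bp around each peak centre. In the upper 50% of each list it was 70.8%, against 36.3% for SAT 1 and 24.8% for VAT 1 as partners. These cuts also removed replicate 1 peaks, so the shares mostly describe other regions. Of the 531 members, 54 overlapped one of the 242 members in the upper 50%, and 160 one of the 1485 with equal-length lists. The members are 0.657% of all autosomal merged regions and 2.58% of those with a SAT 2 peak, and 91.0% of the latter were open in all 4 libraries. The intervals cover counting error only. Since the same regions chose the members, these shares describe them and support nothing further.

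The share of VAT 2 sites matched by SAT 2 was higher in bands of stronger VAT 2 peaks. Among regions with a VAT 2 peak and no replicate 1 peak, a SAT 2 peak was present in 92 of 7033 (1.31%) in the lowest band of VAT 2 percentile, from 0 to 20. It was present in 106 of 5446 (1.95%) from 20 to 40 and in 139 of 2879 (4.83%) from 40 to 60. From 60 to 80 it was present in 160 of 983, or 16.3% (14.0% to 18.7%), and above 80 in 34 of 83, or 41.0% (30.3% to 52.3%). For regions with a peak in SAT 1 and none in VAT 1 or VAT 2, the share from 60 to 80 was 3 of 81, or 3.70% (0.770% to 10.4%). For those with a peak in VAT 1 and none in SAT 1 or VAT 2 it was 3 of 112, or 2.68% (0.556% to 7.63%). The VAT 2 values are those of the members themselves and are given as a description. Above 80 only 3 regions of SAT 1 and 0 of VAT 1 were left, too few for a comparison.

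**Figure D3:**
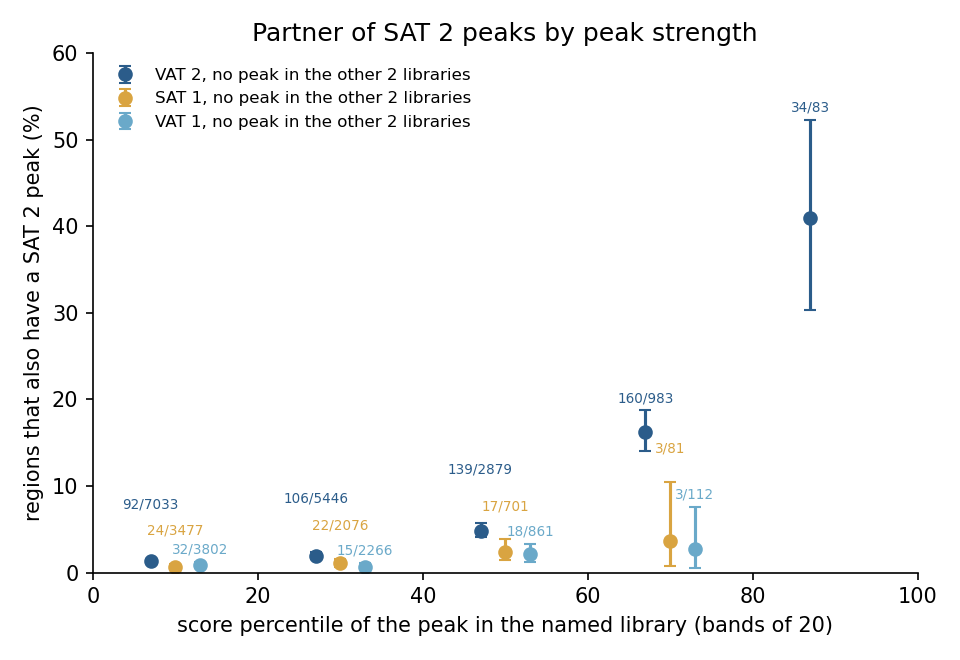
The percentage of regions that also have a SAT 2 peak (y axis) is plotted for regions with a peak in VAT 2, SAT 1 or VAT 1 and in neither of the other 2 libraries, by bands of 20 of the score percentile in the named library (x axis). Bars are 95% Clopper-Pearson intervals, the numbers give regions with a SAT 2 peak over all regions, and bands under 20 regions are left out; VAT 2 climbs from 1.31% to 41.0%.

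Members were spread over all 19 autosomes. Chromosome 1 held the most with 46, followed by 44 each on chromosomes 2 and 4, and chromosomes 18 and 19 held the fewest with 17 each. As a share of the merged regions of a chromosome, the highest was 0.892% on chromosome 8 (38 of 4258, 0.632% to 1.22%) and the lowest 0.459% on chromosome 10 (21 of 4579, 0.284% to 0.700%). The 95% intervals of all 19 chromosomes held the autosomal value of 0.657%, so that no chromosome stood out beyond counting error.

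**Figure D4:**
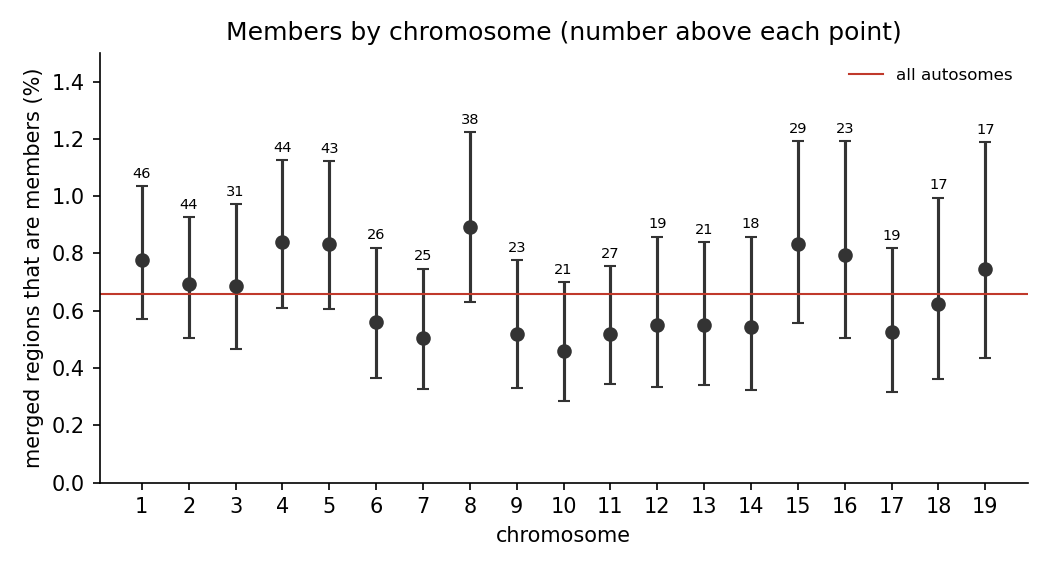
Points give the percentage of the merged regions of each autosome (x axis) that are members (y axis), with 95% Clopper-Pearson intervals and the number of members above each; the red line is the percentage over all autosomes. All intervals cross the line.

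Few members lay close together. Only 12 members, 2.26% (1.17% to 3.91%), had another within 10 kb, and the median distance to the nearest other member was 1176 kb. Within 50 kb 46 members, 8.66% (6.41% to 11.4%), had another, and within 100 kb 65, or 12.2%. For smaller classes the share within 50 kb was 4.99% (3.03% to 7.68%) for the 381 regions missing only SAT 1, 1.11% (0.303% to 2.81%) for the 361 missing only VAT 1, and 3.65% (1.76% to 6.61%) for the 274 found in SAT 2 alone. For the 171 regions missing only VAT 2 it was 6.43% (3.25% to 11.2%). Their share within 10 kb was also 6.43% (3.25% to 11.2%), above that of the members. It was 0% within 50 kb for the 68 regions only in SAT 2 and VAT 1 and the 66 only in SAT 1 and SAT 2. The interval of the members within 50 kb overlaps those of the regions missing only SAT 1, of those missing only VAT 2 and of the regions in SAT 2 alone. Closeness is shared by both regions of a pair, so intervals that count regions as separate are likely too narrow here. Larger classes have shorter distances by their number, so these shares cannot be compared as closeness: of the 7643 regions shared by the replicate 1 libraries alone 53.9% had another within 50 kb.

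Successive members no more than 10 kb apart formed 6 pairs and no longer run. The closest pair lay on chromosome 7, at 131075581 to 131075906 (scoring 67 in SAT 2 and 112 in VAT 2) and at 131076000 to 131076361 (76 and 167). These 2 sites were 93 bp apart, so they join into 1 region when peaks within 500 bp are merged. They lay 466.1 kb from the nearest replicate 1 peak. A pair on chromosome 14, at 13648960 to 13649374 (97 in SAT 2 and 115 in VAT 2) and at 13654343 to 13654803 (71 and 176), also lay far from replicate 1, at 140.3 kb. The pair on chromosome 4 joined the site ranked 12 with one at 128938029 to 128938229 (33 and 178). The other pairs lay on chromosomes 15, 18 and 3. On chromosome 15 the sites were at 4746829 to 4747146 (97 and 152) and at 4755717 to 4755963 (68 and 39). On chromosome 18 they were at 26161826 to 26161950 (62 and 41) and at 26166333 to 26166671 (66 and 57). On chromosome 3 they were at 137689308 to 137689609 (50 and 89) and at 137692413 to 137692629 (66 and 43).

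With gaps of up to 100 kb, a distance chosen after the data were seen, 4 runs had 3 or more members. The run on chromosome 2 that holds the strongest member was the only one with 4. A run of 3 on chromosome 1 from 158916414 to 159007426 included the fourth in rank, and its other 2 members had SAT 2 scores of 50 and 34 and VAT 2 scores of 139 and 60. Between its first and last member, 10 regions had a peak in VAT 2 alone and 2 had a replicate 1 peak. Another run of 3 on chromosome 1, from 161007134 to 161059046, held no replicate 1 peak, with SAT 2 scores of 41, 77 and 41 and VAT 2 scores of 130, 209 and 156. The run on chromosome 15, from 34264995 to 34337215, had SAT 2 scores of 75, 76 and 76 and VAT 2 scores of 40, 97 and 186. Between its first and last member, 2 regions had replicate 1 peaks, and both were open in all 4 libraries. They scored 230 and 145 in SAT 1 and 178 and 179 in VAT 1.

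In windows of 1 Mb the most members in 1 window was 4, on chromosome 8 from 11 to 12 Mb, among 89 merged regions. The highest share among windows with at least 3 members was on chromosome 4 from 113 to 114 Mb, where 3 of only 5 merged regions were members. These were the site of rank 8, one at 113605549 to 113605658 that scored 97 in SAT 2 and 61 in VAT 2, and one at 113963486 to 113963592 with 97 and 89. The other 2 regions of the window were 1 found in SAT 1 alone and 1 open in all 4 libraries. The latter scored 38 in SAT 1 (percentile 5.17), 54 in VAT 1 (15.2), 77 in SAT 2 (40.7) and 141 in VAT 2 (65.7). This ranking was chosen after the data were seen.

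Distance to replicate 1 peaks showed where the members sit among other open sites. The median distance was 7.91 kb (95% interval 6.483 to 8.997 kb), and 16.0% of members had a replicate 1 peak within 1 kb. For the 15893 regions found in VAT 2 alone the median was 7.63 kb (7.42 to 7.85 kb), which lies inside the interval of the members. For regions found in SAT 2 alone it was 4.27 kb (2.92 to 5.69 kb), below that interval. Beyond 100 kb from any replicate 1 peak lay 30 members, or 5.65%, against 4.17% of the regions found in VAT 2 alone and 6.93% of those found in SAT 2 alone. The farthest lay on chromosome 8 at 22086759 to 22087054, 1084 kb away, and scored 54 in SAT 2 and 49 in VAT 2. Its 2 peaks barely overlapped, by 5.23% of the wider peak, with centres 143.5 bp apart. The next farthest lay on the same chromosome at 16273679 to 16273996, 735.1 kb away, with 41 and 200.

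**Figure D5:**
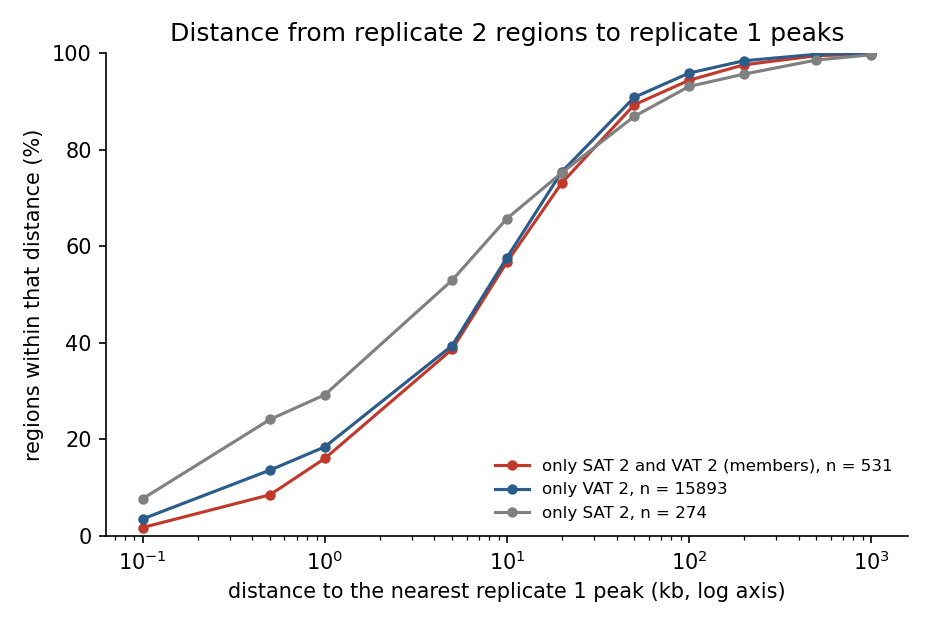
The percentage of regions (y axis) within a given distance of the nearest SAT 1 or VAT 1 peak (x axis, kb on a log scale) is plotted for the members, for regions found in VAT 2 alone and for regions found in SAT 2 alone. The curve of the members runs close to that of VAT 2 alone, with medians of 7.91 and 7.63 kb.

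At the edge of the rule, 9 members had a replicate 1 peak within 100 bp without overlap. The nearest, on chromosome 1 (158403070 to 158403199), scored 49 in SAT 2 and 72 in VAT 2, and a replicate 1 peak touched its end with no shared base. Next came a site on chromosome 11 at 3027148 to 3027398, 24 bp from a replicate 1 peak, with 36 and 42. Just outside the rule, 6 regions held SAT 2 and VAT 2 peaks that shared 50 bp or less with replicate 1 peaks. The one with the least, 4 bp, on chromosome 6 (34548128 to 34548582), scored 68 in SAT 2, 63 in VAT 2 and 47 in VAT 1. These regions on both sides of the edge had modest scores, but not every member near it did. A member on chromosome 16 (57593918 to 57594066), 44 bp from a replicate 1 peak, scored 68 in SAT 2 and 152 in VAT 2 (percentile 68.5). At the low end of the peak score 13 members had a SAT 2 score of 30 or less, where every list ended at 20.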

How the data were processed

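ATAC-seq libraries were used from 4 samples, 2 of SAT and 2 of VAT progenitors, grouped by their titles. Per the submitters' processing notes, Bowtie2, MACS2 and genome build mm9 were used. Versions, options, duplicate handling, transposase shift and repeat filters are not stated in the labels or lists. The authors deposited 1 peak list per library, so replicates were not pooled before calling. The deposited peak score (column 5) has no stated scale and was used only as a percentile within a list. Peak names share 1 date-like prefix across the lists, so no batch could be separated. Counts per peak and depth are unknown.

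The members, lists and distances were chosen with earlier results of these data known. The rule for named sites took the 20 members with the highest percentile in the weaker list, ties ordered by the stronger, and up to 10 runs with gaps of 10 kb or less, of which 6 existed. No p-value was computed, because regions of the same libraries are not replicates and the rule used the peaks. Shares have 95% Clopper-Pearson intervals. Interval code was tested on simulated data and against bedtools 2.31.1. Python 3.11.15, numpy 2.4.6, pandas 2.3.3, scipy 1.17.1 and matplotlib 3.10.9 were used. The share near gene starts and the planned gene and cell type lists need gene positions on mm9 and were not analysed here. Start and end positions (bp), another measurement in the deposited lists, were used as given.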

Additional observations from a re-analysis of the deposited data

How the results depend on the processing

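The number of members (531) stayed within 1.5 times with peaks within 500 bp merged, 50% reciprocal overlap, 200 bp around each peak centre, and no replicate 1 peak within 1 kb. A like number need not mean the same regions. Of the 531, 483 overlapped a member with 500 bp merging and 527 with 200 bp centres. For 50% reciprocal overlap this was not counted, and the lower quartile of the overlap within members was 39.9%, below that limit. The number was 242 in the top 50% of each list, and 54 of the 531 members overlapped one of these. With lists of equal length (22845 peaks) it was 1485, of which 160 had no replicate 1 peak in the full lists. The other 1325 follow from the shorter lists. Leaving out 1 library gave 862 (without VAT 2) to 16432 (without SAT 2), 897 without SAT 1 and 921 without VAT 1, which rises by construction because the rule then asks less. The median width (241 bp) was 208 bp with 50% reciprocal overlap, 256 bp with peaks within 500 bp merged, 302.5 bp in the top 50%, 352 bp with equal-length lists, and 121 bp to 243 bp with 1 library left out. The median percentile of the weaker peak (22.2) was 57.8 in the top 50%, 30.2 with equal-length lists and 20.5 to 25.3 with 1 library left out. The share with another member within 10 kb (2.26%) was 3.63% with 50% reciprocal overlap, 4.18% with equal-length lists, 5.08% with 200 bp centres, 0.826% in the top 50% and 2.34% to 28.6% with 1 library left out. It was 8.66% at 50 kb and 12.2% at 100 kb. All 4 members of the chromosome 2 run met the rule with 500 bp merging, equal-length lists and 200 bp centres, and 3 of the 4 in the top 50%. The share of SAT 2 regions without replicate 1 peaks that had a VAT 2 peak (66.0%) was 36.5% with equal-length lists, against 15.1% for SAT 1 and 14.2% for VAT 1 as partners, and 39.4% with 200 bp centres, against 15.1% and 18.3%. It was 70.8% in the top 50%, against 36.3% and 24.8%; these settings were added after seeing the data. The cause of these shifts was not tested where not stated. The share near gene starts was not run. No paired analysis was possible because the replicate number itself defines the members. Unknown read depth limits every absence, above all in SAT 2.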
